A study of Danio rerio with 9 samples.

Results

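Of the 2581 circular RNAs (circRNAs) in the deposited brain table, 68 were found in both insecticide groups and in no control library. They were chosen from the measured values themselves: a member has at least 1 read in at least 2 of the 3 CYP libraries and in at least 2 of the 3 CPF libraries, and 0 reads in all 3 control libraries. The study measured circRNAs in 9 libraries of zebrafish (Danio rerio) brain tissue, 3 from fish with no toxication (control), 3 from fish with CYP toxication and 3 from fish with CPF toxication. As the agents of an acute exposure the series gives cypermethrin, a pyrethroid insecticide of which the main target is the voltage-gated sodium channel of neurons, and chlorpyrifos, an organophosphate converted in the body to a blocker of acetylcholinesterase. The strain, age and sex of the fish, the dose, the exposure time, any vehicle, and how many fish went into a library are not stated in the labels. The labels also do not say whether each library is its own fish, so the spread between libraries may be technical.

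A circRNA is a closed RNA ring made when the spliceosome joins the end of an exon back to an earlier splice site, and it is recognised in sequencing by reads that cross this back-splice junction. Because rings have no free ends they resist exonucleases and last long in cells. Brain is known as a tissue rich in circRNAs, many of them from genes of synapses. Some circRNAs bind microRNAs or proteins, and most have no known role. The files give each member a number only, with no gene, coordinate or sequence, so no host gene or function is stated for any of them, and the tissue label could not be checked against marker genes.

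Levels below are in RPM, the junction reads of a circRNA for every 1000000 reads in its library. Library totals were 68.7 to 94.7 in units of 1000000 reads, and the 22470 junction reads in all were unevenly spread, with 5740 in control, 5306 in CYP and 11424 in CPF. One read was worth 0.0106 to 0.0145 RPM. A library at 0 allows up to 3 reads, or 0.0317 to 0.0419 RPM in the control libraries, and the control group at 0 allows 3 reads over its 3 libraries together, or 0.0122 RPM. Such limits cover counting error only, since PCR copies are not independent molecules. For members they are nominal, because the rule required the control zeros. Control 1 stood apart by its low number of circRNAs with a read, 470 against 694 and 679 in control 2 and control 3, although it had the most junction reads of the control libraries. Without control 1 the rule gives 81 circRNAs, the 68 included, and without control 2 or control 3 it gives 115. With a CYP library left out and 2 still required it gives 35 (without CYP 1), 22 (CYP 2) or 33 (CYP 3), and with a CPF library left out 48 (CPF 1), 40 (CPF 2) or 46 (CPF 3).

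The members were low in both exposures and made up a small part of what was sequenced. They held 778 junction reads, 3.46% of all, with 303 in CYP and 475 in CPF. A member had a median of 10 reads over the 6 exposed libraries, from 4 to 38, and a mean of 0.0216 RPM (median over members, range 0.00875 to 0.0791). Of the 316 member values above 0 in exposed libraries, 127 (40.2%) were a single read and 204 (64.6%) were 1 or 2 reads. Only 39 values (12.3%) reached 5 reads. The spread between libraries was close to the size of the mean: the SD over 3 libraries was 93.1% of the mean in CYP and 87.7% in CPF, as medians over the 68 members.

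**Figure D1:**
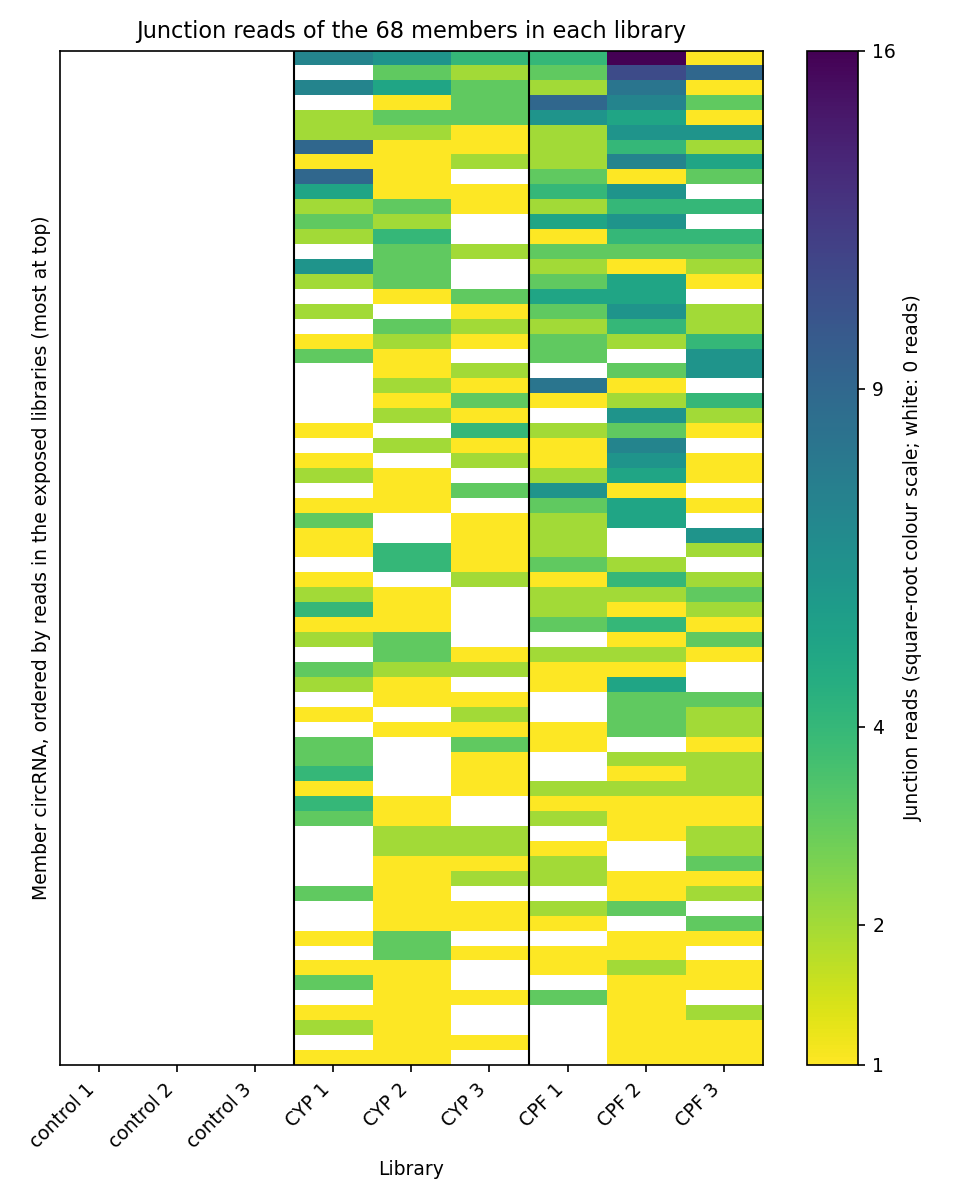
Junction reads of the 68 members (rows, most reads at the top) in the 9 libraries (columns), coloured on a square-root scale with white for 0 reads. The control columns are white by the rule, the exposed columns hold 1 or 2 reads in most filled cells, and the highest value is the 16 reads of the top row in CPF 2.

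Most members missed a library of at least 1 exposure. Of the 68, 32 (47.1%) were in exactly 2 CYP and 2 CPF libraries, the least the rule allows. Another 25 were in 2 CYP and all 3 CPF libraries, 3 were in all 3 CYP and 2 CPF libraries, and 8 (11.8%) were in all 6 exposed libraries. Among the 57 members in exactly 2 CYP libraries, the missing library was CYP 1 for 24, CYP 3 for 22 and CYP 2 for 11. Among the 35 in exactly 2 CPF libraries, it was CPF 1 for 15, CPF 3 for 13 and CPF 2 for 7. CPF 2 was the library with the most junction reads, 4614 of the 11424 in CPF. It also held the single highest read number of 22 members, more than any other library. Of the members' reads in CPF it held 44.0% (209 of 475).

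A member in all 3 libraries of an exposure lies, by the rule, wholly above control there. This held for 33 members (48.5%) in CPF and for 11 (16.2%) in CYP. Over all 1158 circRNAs tested, those above 0 in at least 3 of the 9 libraries, every CPF library lay above every control library for 18.5% and every CYP library for 3.63%. The rule used these contrasts, so nothing is read from the difference in shares. All 68 members pass the filter because the rule asks for 4 libraries.

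The member with the most reads was dre_circ_1686. It had 7, 6 and 4 reads in CYP 1, 2 and 3 (0.0800, 0.0862 and 0.0560 RPM) and 4, 16 and 1 in CPF 1, 2 and 3 (0.0439, 0.194 and 0.0145 RPM). The CYP libraries were close to each other and lay inside the wide CPF range, where CPF 2 alone held most of the reads. The group means were 0.0741 ± 0.0160 RPM in CYP and 0.0842 ± 0.0964 in CPF (SD, n = 3 each). Taking 3 reads over the control group as its limit, pooled RPM were 6.08 times this control limit in CYP and 7.09 times in CPF. The rule required the control zeros, so such ratios are descriptions and not bounds on a change against control.

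dre_circ_731 had a similar shape, with 7, 5 and 3 reads in CYP (0.0800, 0.0719 and 0.0420 RPM) and 2, 8 and 1 in CPF (0.0220, 0.0971 and 0.0145 RPM). Here too CPF 2 was the highest library, and the other CPF libraries lay below all CYP libraries. Means were 0.0646 ± 0.0200 RPM in CYP and 0.0445 ± 0.0457 in CPF. Pooled RPM were 5.37 and 3.72 times the control limit.

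dre_circ_1048 and dre_circ_1575 leaned to CPF, with most of their reads there. dre_circ_1048 had 0, 3 and 2 reads in CYP (0, 0.0431 and 0.0280 RPM) and 3, 11 and 9 in CPF (0.0330, 0.133 and 0.131 RPM). CPF 2 and CPF 3 lay above every CYP library and CPF 1 within the CYP range. Means were 0.0237 ± 0.0219 RPM in CYP and 0.0991 ± 0.0573 in CPF. Pooled RPM in CPF were 7.77 times the control limit, the highest such ratio among the members. dre_circ_1575 had 0, 1 and 3 reads in CYP (0, 0.0144 and 0.0420 RPM) and 9, 7 and 3 in CPF (0.0989, 0.0850 and 0.0436 RPM). Its groups did not overlap, but 3 reads in CYP 3 and 3 in CPF 3 are told apart by the library totals alone. Means were 0.0188 ± 0.0213 RPM in CYP and 0.0758 ± 0.0287 in CPF. Pooled RPM were 1.43 and 6.42 times the control limit.

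The other members found in all 6 exposed libraries were dre_circ_324, dre_circ_398, dre_circ_1262, dre_circ_2958, dre_circ_762 and dre_circ_130. dre_circ_324 had 2, 3 and 3 reads in CYP and 6, 5 and 1 in CPF, for means of 0.0360 ± 0.0114 and 0.0471 ± 0.0283 RPM. dre_circ_398 had 2, 2 and 1 reads in CYP and 2, 6 and 6 in CPF, for 0.0219 ± 0.00743 and 0.0607 ± 0.0343 RPM. dre_circ_2958 had 1, 1 and 2 reads in CYP and 2, 7 and 5 in CPF, for 0.0179 ± 0.00883 and 0.0599 ± 0.0334 RPM. In both dre_circ_398 and dre_circ_2958, CPF 2 and CPF 3 were the high libraries, while CPF 1 stayed within the CYP range. dre_circ_762 had 2, 3 and 1 reads in CYP and 2, 4 and 4 in CPF, for 0.0267 ± 0.0149 and 0.0429 ± 0.0188 RPM. dre_circ_130 had 1, 2 and 1 reads in CYP and 3, 2 and 4 in CPF, for 0.0181 ± 0.00934 and 0.0385 ± 0.0176 RPM. In each of these the ranges of the groups overlapped.

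Single libraries set the level of dre_circ_1262 and dre_circ_3061. dre_circ_1262 had 9, 1 and 1 reads in CYP (0.103, 0.0144 and 0.0140 RPM) and 2, 4 and 2 in CPF (0.0220, 0.0485 and 0.0291 RPM). dre_circ_3061 had 9, 1 and 0 reads in CYP (0.103, 0.0144 and 0 RPM) and 3, 1 and 3 in CPF (0.0330, 0.0121 and 0.0436 RPM). In both, CYP 1 was the highest of the 6 exposed libraries and the other CYP libraries were at 1 read or 0. The mean of dre_circ_1262 in CYP was 0.0438 ± 0.0512 RPM and that of dre_circ_3061 was 0.0391 ± 0.0557 RPM, with an SD above the mean in each.

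**Figure D2:**
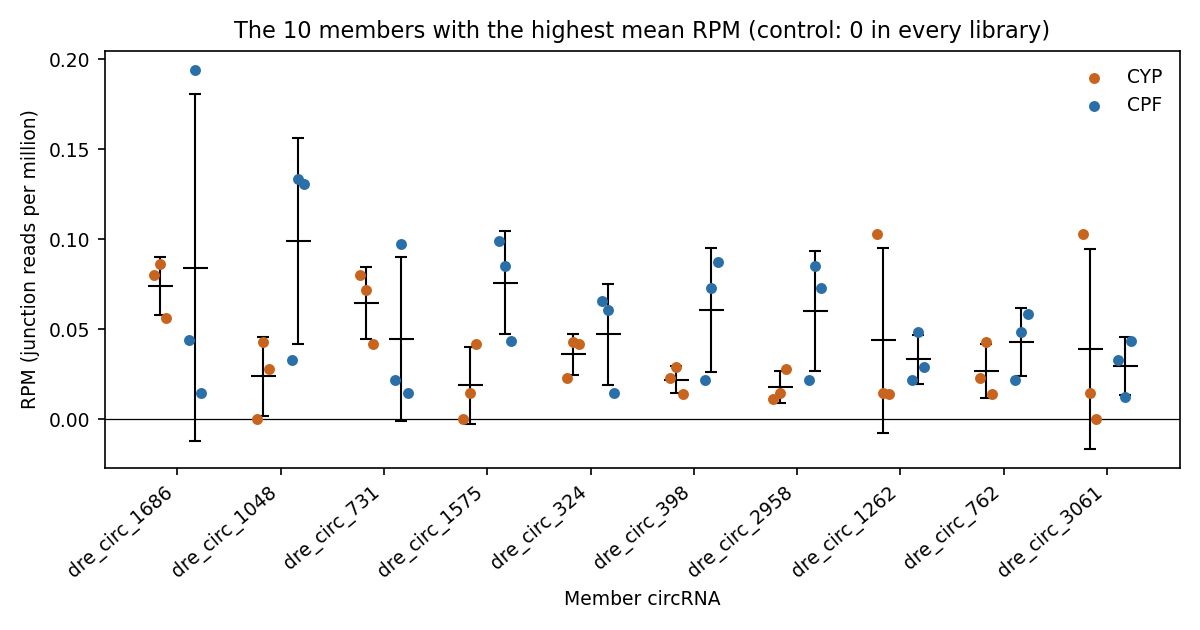
RPM of the 10 members with the highest mean over the 6 exposed libraries. Points are libraries (orange CYP, blue CPF, drawn in the order 1, 2, 3), the dash is the group mean and the bar 1 SD (n = 3). CYP and CPF points overlap for every member drawn but dre_circ_1575, and the highest point is dre_circ_1686 in CPF 2 at 0.194 RPM.

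The remaining 54 members, those not named here by rule, had 4 to 17 reads over the 6 exposed libraries (median 9.5) and mean levels of 0.00875 to 0.0337 RPM. Depth limits what can be said of them. In CYP, 41 of the 68 members had more than 3 reads in the group. For these the pooled RPM was 1.43 to 6.08 times the control limit, with a median of 1.79. In CPF it was 54 members, at 1.35 to 7.77 times the limit, with a median of 2.70. Pooled RPM was at or below the control limit for 14 members in CYP and 8 in CPF, so for these a level in control as high as the exposed one could have been missed at this depth. For the other members such a level is not excluded either, because the limit rests on control zeros that the rule required. The ratios to the limit take the exposed reads as exact. By a 95% counting interval on the exposed reads, the lower bound exceeded the control limit for 8 of 68 members in CYP. The number was 28 in CPF and 5 in both exposures. Both sides of this comparison were used by the rule, so nothing is read from these numbers.

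Some circRNAs missed the rule by a single read or library. Of the 391 circRNAs found in at least 2 libraries of each exposure, 47 had exactly 1 read over the 3 control libraries, against the 68 with 0. Highest among these was dre_circ_1917, with 1 read in control 3, 2, 4 and 1 reads in CYP and 11, 14 and 11 in CPF. dre_circ_1259 had 1 read in control 3, 1, 12 and 0 in CYP and 7, 20 and 2 in CPF. dre_circ_508 had 1 read in control 2, 4, 3 and 1 in CYP and 9, 8 and 7 in CPF. dre_circ_1917 and dre_circ_1259 had more exposed reads (43 and 42) than any member, and dre_circ_508 (32) more than any member but dre_circ_1686.

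Among circRNAs at 0 in control, 127 more had at least 2 CPF libraries but 1 CYP library, and 32 had at least 2 CYP libraries but 1 CPF library. dre_circ_1971 had 4 reads in CYP 3 alone of the CYP libraries and 3, 13 and 2 in CPF. dre_circ_2963 had 1 read in CYP 2 and 5, 11 and 2 in CPF, and dre_circ_1469 had 3 reads in CYP 1 and 8, 5 and 2 in CPF. A further 154 were in at least 2 CPF libraries and no CYP library, and 13 in at least 2 CYP libraries and no CPF library.

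The same rule was applied with each of the other groups in the place of control. A group at 0 was about as frequent for CYP as for control: 48 of the 343 circRNAs found in at least 2 control and 2 CPF libraries had 0 reads in CYP (13.99%), beside 68 of 391 (17.4%) with 0 reads in control. The circRNAs at 0 in CYP also had a median of 10 reads over the other groups, from 4 to 25. Only 2 of the 228 circRNAs found in at least 2 control and 2 CYP libraries had 0 reads in CPF (0.877%), with 7 and 8 reads. With all 3 libraries of both other groups required, the counts were 8 of 123 (6.50%) at 0 in control, 6 of 96 (6.25%) at 0 in CYP and 0 of 58 at 0 in CPF. CPF held 11424 junction reads, control 5740 and CYP 5306. Library totals summed over each group were close, at 242 in CPF, 245 in control and 229 in CYP, in the unit used above. CPF thus had more junction reads per library read, and not a larger library total than control. The part of these junction reads in the counts was not tested.

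Absence from control went with few exposed reads. Among circRNAs in at least 2 libraries of both exposures, 10 of 24 with 4 to 6 exposed reads were at 0 in control (41.7%), and 19 of 60 with 7 to 9 reads (31.7%). The share was 23.2% (26 of 112) at 10 to 14 reads, 10.1% (12 of 119) at 15 to 29 reads and 1.32% (1 of 76) at 30 reads or more. The 323 that had control reads also had more exposed reads, with a median of 16 against 10. Of the 391, 93 (23.8%) were in all 3 control libraries, 13 had control reads in control 1 alone, 47 in control 2 alone and 47 in control 3 alone.

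**Figure D3:**
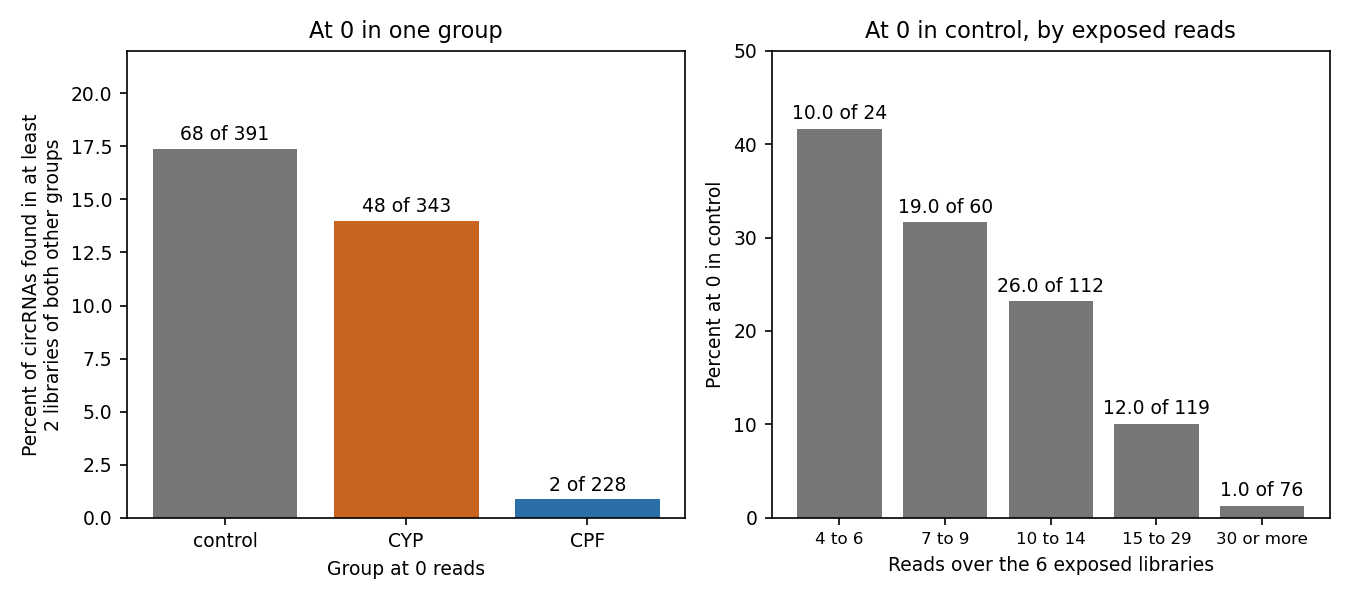
Left, the percent of circRNAs found in at least 2 libraries of both other groups that had 0 reads in the named group. Right, the percent at 0 in control among circRNAs in at least 2 libraries of both exposures, by their reads over the 6 exposed libraries. The left bars stand at 17.4% for control, 13.99% for CYP and 0.877% for CPF, and the right bars fall from 41.7% to 1.32%.

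As a set, the members gave a higher summed level in CPF than in CYP per library read, and a higher share of the circRNA reads in CYP. Summed RPM were 1.36, 1.52 and 1.09 in CYP 1, 2 and 3 and 1.47, 2.54 and 1.92 in CPF 1, 2 and 3. CPF 1 lay within the CYP range, and CPF 2 and CPF 3 lay above it. The means were 1.32 ± 0.218 and 1.98 ± 0.534 RPM (SD, n = 3), a log2 ratio of CYP to CPF of -0.58 with an SE of 0.26, and of -0.36 (SE 0.23) without CPF 2. In percent of a library's circRNA reads the members took 5.34, 5.96 and 6.005 in CYP and 3.56, 4.53 and 4.33 in CPF, with every CYP library above every CPF library. With circRNA totals made equal the log2 ratio of the summed level turned to 0.48 (SE 0.12), so its direction depends on the scaling. The rule used these same reads, so the shares and the ratios are partly set by it. Nothing is read from their direction or their separation.

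Members with a read numbered 44, 57 and 46 in CYP 1, 2 and 3 and 53, 61 and 55 in CPF 1, 2 and 3. The groups overlapped, since CYP 2 exceeded CPF 1 and CPF 3. The means were 49.0 ± 7.0 and 56.3 ± 4.16, a log2 ratio of -0.20 (SE 0.13), which was -0.32 without CYP 2 and -0.13 without CYP 1. Members were chosen with these values in view, so no test is given for sums and numbers over them.

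**Figure D4:**
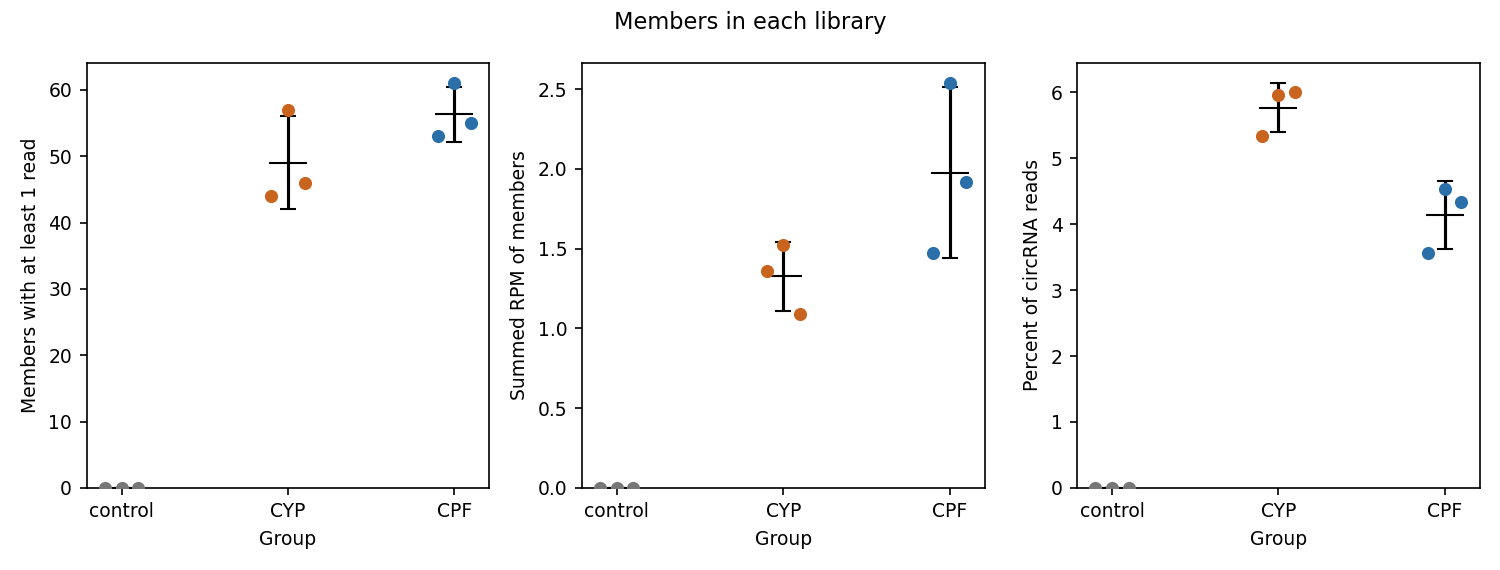
Members with at least 1 read, their summed RPM and their percent of circRNA reads in each library (points), with the group mean and 1 SD (n = 3). Control is at 0 by the rule. Summed RPM averaged 1.32 in CYP and 1.98 in CPF, while the percent of circRNA reads averaged 5.77 in CYP and 4.14 in CPF.

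The rule treats both exposures alike, so CYP against CPF is the contrast in which single members were tested. The rule still asks for reads in at least 2 libraries of each exposure, which bounds how far a member can differ. The counts below are therefore partly set by the rule. No member passed. By limma on log2(RPM + 0.0126), fitted over all 1158 circRNAs and adjusted by Benjamini-Hochberg, 0 of the 68 had an adjusted p under 0.05 (smallest 0.298), against 1 circRNA (0.0864%) in the whole table. At an unadjusted p under 0.05, 2 members (2.94%) were lower in CYP and 0 higher, beside 14.8% lower and 0.345% higher over all tested. This split depended on the scaling: it was 0 lower and 0 higher with equal circRNA totals, and 0 lower and 2 higher with quantile normalization. edgeR with TMM and DESeq2 gave 0 members at an adjusted p under 0.05 and 0 at an unadjusted p under 0.05. A p that misses the threshold does not show that the exposures gave the same level, and members had 2 to 17 reads in CYP and 2 to 23 in CPF.

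Both members under the unadjusted threshold were the CPF-leaning ones named above. dre_circ_1048 had a log2 fold change of CYP to CPF of -1.69 (SE 0.79; limma adjusted p = 0.298; lower in CYP by the mean, with overlapping libraries). dre_circ_1575 had -1.68 (SE 0.79; limma adjusted p = 0.298; every CYP library lower). Next came dre_circ_2652, with 2, 0 and 1 reads in CYP and 3, 6 and 2 in CPF and a log2 fold change of -1.26 (SE 0.77; limma adjusted p = 0.413). Its CPF libraries (0.0330, 0.0728 and 0.0291 RPM) lay above its CYP libraries (0.0229, 0 and 0.0140 RPM). The 2 reads in CYP 1 and the 2 in CPF 3 are told apart by the library totals alone.

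On the CYP side dre_circ_1299 had the highest log2 fold change, 1.14 (SE 0.74; limma adjusted p = 0.440). It had 3, 2 and 2 reads in CYP (0.0343, 0.0287 and 0.0280 RPM) and 1, 1 and 0 in CPF (0.0110, 0.0121 and 0 RPM), without overlap. dre_circ_731 followed at 0.68 (SE 0.79; limma adjusted p = 0.697), with overlapping libraries. dre_circ_1257, with 3, 0 and 3 reads in CYP and 1, 0 and 1 in CPF, had 0.67 (SE 0.70; limma adjusted p = 0.669). dre_circ_1686, the member with the most reads, had 0.33 (SE 0.80; limma adjusted p = 0.861), although its mean RPM was lower in CYP (0.0741 against 0.0842). The log2 fold change turned to -0.34 without CPF 3 and -0.19 by edgeR with library totals.

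Every CPF library lay above every CYP library for 5 members (7.35%), beside 17.4% of all circRNAs tested. The reverse held for 1 member (1.47%), dre_circ_1299, beside 0.950% of all. Both shares of members are limited by the rule, which asks for reads in at least 2 libraries of each exposure. Of the 5, chosen for mention after their values were seen, dre_circ_402 (1, 1 and 0 reads in CYP, 3, 5 and 1 in CPF) and dre_circ_370 (1, 1 and 0 in CYP, 3, 4 and 1 in CPF) are separated only by the library totals, since CYP 2 and CPF 3 had 1 read each. The groups of dre_circ_1575 and dre_circ_2652, given above, are also told apart by the library totals alone. dre_circ_2641 had 1, 0 and 1 reads in CYP and 2 in each CPF library.

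The members' log2 fold changes of CYP to CPF ran from -1.69 to 1.14 with a median of -0.35, and 50 of 68 (73.5%) were lower in CYP. Over all 1158 tested the median was -0.60 and 78.6% were lower in CYP. The rule asks for reads in 2 CYP libraries, which bounds how low a member can be in CYP. Without a filter the median over all 2581 circRNAs was -0.32, slightly above that of the members. Scaling moved both: with equal circRNA totals the medians were 0.16 for members and -0.19 for all, and with quantile normalization 0.22 and 0.00144. The median of the members changed sign under both scalings and by DESeq2, which gave 0.51 for members and 0 for all. It stayed negative under every other alternative run, among them edgeR with TMM (-0.23).

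**Figure D5:**
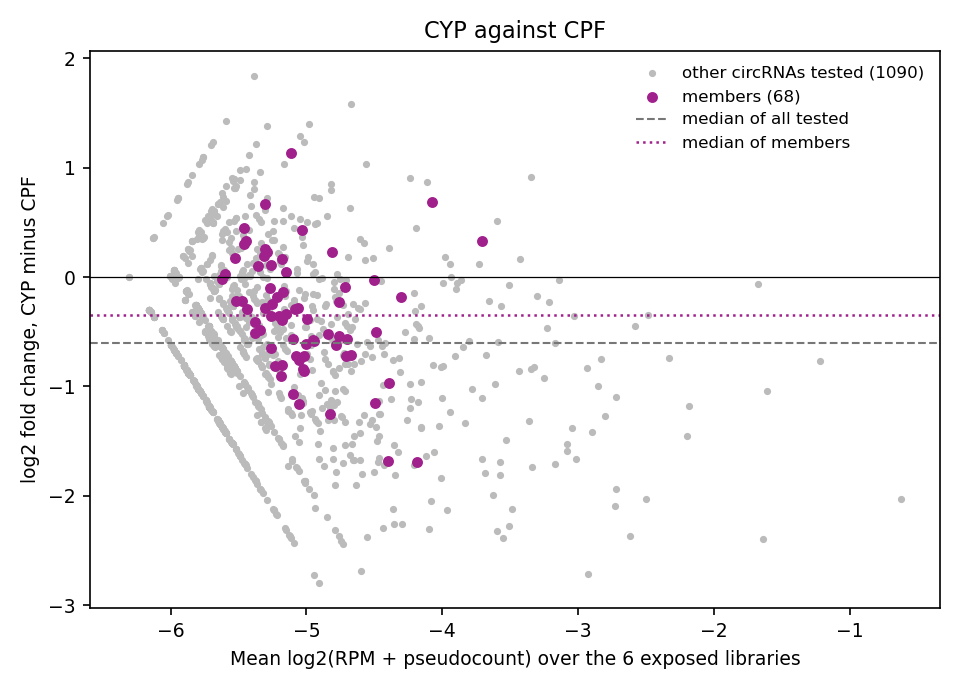
log2 fold change of CYP to CPF against the mean log2 level over the 6 exposed libraries for the 1158 circRNAs tested (grey) and the 68 members (purple). The dotted line marks the members' median of -0.35 and the dashed line the median of all, -0.60; members lie at low levels and at fold changes from -1.69 to 1.14.

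The authors' deposited tables of listed circRNAs hold 7 of the 68 members among their 105 circRNAs (10.3% of the members, 6.67% of the listed), beside 4.07% of all 2581 circRNAs listed. Their table for CPF against control lists 6 members among 60 circRNAs (2.32% of all), the one for CYP against control 2 among 16 (0.620%), and the one for CYP against CPF 1 among 62 (2.40%). The lists against control use the contrasts of the rule, so nothing is read from these shares. The comparisons against control share the same control libraries. For dre_circ_1686, the one member in both lists against control, the authors' deposited table gives a log2 fold change of 3.0 in CPF (adjusted p = 0.979) and 2.74 in CYP (adjusted p = 1). For dre_circ_731 the authors' deposited table for CYP gives 2.58 (adjusted p = 1). For CPF against control the authors' deposited table gives 3.12 for dre_circ_1048, 2.87 for dre_circ_1575, 2.5 for dre_circ_2958 and for dre_circ_398, and 2.32 for dre_circ_324, each with an adjusted p of 0.979. In the authors' deposited table for CYP against CPF, dre_circ_1048 has -1.70 (adjusted p = 0.980). Over these entries of members the unadjusted p in the authors' deposited tables ran from 0.00453 to 0.0431, by a test they do not name. Both ends belong to dre_circ_1048, the lower in CPF against control and the upper in CYP against CPF.

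These fold changes follow from the pooled reads with 3 added to each group. The log2 ratio of such sums matched every entry of the authors' deposited tables within 6.33e-06, with each lost decimal point put back behind the leading digit. A member has 0 control reads, so in the authors' deposited tables against control its fold change is the exposed reads plus 3, divided by 3, with no correction for library totals. For dre_circ_1686 in CPF this is 24 over 3, of which the log2 is 3.0.

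The members' numbers follow the libraries in which they were found. Over all 2581 circRNAs, numbers run in blocks by the first library with a read, in the order CPF 1, 2, 3, CYP 1, 2, 3 and control 1, 2, 3, with no overlap between blocks. circRNAs with a read in CPF 1 have numbers up to 3300, and those first found in CPF 2 run from 3303 to 5730. The 53 members with a read in CPF 1 fall in the first block and the 15 without in the second, and the rule, which asks for 2 CPF libraries, leaves no other block for them.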

How the data were processed

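The deposited table gives 2581 circRNAs in 9 libraries, taken by column name from the labels' titles. Per the file headers the values are fpm; the authors' control and CYP values are RPM, and the deposited CPF signal has the same scale apart from 3 cells of dre_circ_2902, a non-member, whose lost decimal point was restored. Of values above 0, 100% were whole multiples of the column's smallest (tolerance 1e-06), which recovered reads and library totals. The pooled signal values, log2 fold changes, p-values and adjusted p-values of the authors' deposited tables are theirs, made with DESeq2 named without a role per the submitters' processing notes, which also name UMD3.1, a cattle build. The sources used here give no aligner, circRNA caller or filter; 501 circRNAs have 1 read in all.

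The main test was limma 3.58.1 (R 4.3.3) with a mean-variance trend on log2(RPM + 0.0126), the pseudocount being what 1 read is worth in the median library. The limma fold changes use that log scale, which understates changes of low circRNAs. Ratios of sums, limits against control, and edgeR and DESeq2 values do not use it. The authors' values add 3 reads to each pooled sum, which also understates such changes. It kept circRNAs above 0 in at least 3 libraries (1158), used all 9 libraries, and was tested on simulated reads. A member's control values are equal by the rule and enter its variance estimate without adding spread. Its SE and limma p thus rest partly on values that the rule fixed. With the compared groups alone, 0 members were called (smallest limma adjusted p 0.332). edgeR 4.0.16 and DESeq2 1.42.0 were alternatives on recovered reads. Counts, sums and plots used matplotlib 3.10.9, scipy 1.17.1, pandas 2.3.3 and numpy 2.4.6 under Python 3.11.15. Chi-square statistics per degree of freedom of 1.44 to 2.65 put no pair of libraries of a group within sampling noise. Named members were those in all 6 exposed libraries, of the 10 highest means, in the authors' lists, or with the 3 most positive or negative CYP to CPF fold changes; near misses were the 3 with most exposed reads of each kind. The members, the rule for names and the tests were chosen with earlier results of these data known.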

Additional observations from a re-analysis of the deposited data

How the results depend on the processing

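Membership depended on single libraries and reads, with the direction of each change set by the rule. In place of 68, the rule gave 360 members with at least 1 library of each exposure, 8 with all 3, 12 when a library needed at least 2 reads and 115 when 1 control read was allowed. With 1 library left out it gave 22 (without CYP 2) to 115 (without control 2 or control 3), and 81 without control 1. The other counts were 35 and 33 without CYP 1 and CYP 3, and 48, 40 and 46 without CPF 1, CPF 2 and CPF 3. The log2 ratio of summed member RPM, -0.58, ran from -0.75 to -0.36 with a CYP or CPF library left out and was 0.48 with equal circRNA totals. That of detected members, -0.20, ran from -0.32 to -0.13, and was 0 by construction over members in all 6 exposed libraries. No member was called in CYP against CPF under any of the 20 alternatives run, and with the stricter filter of 6 libraries 8 members were tested.

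The fold changes of 9 of the 14 named members kept their sign under every alternative run, and 27 of 274 values over all 14 changed sign, in 5 members. With equal circRNA totals the log2 fold change of CYP to CPF was 0.59 for dre_circ_324, 0.67 for dre_circ_1262, 0.25 for dre_circ_3061 and 0.22 for dre_circ_762. With quantile normalization it was 0.54 for dre_circ_324, 0.65 for dre_circ_1262 and 0.43 for dre_circ_3061. By DESeq2 it was 0.67 for dre_circ_324, 1.54 for dre_circ_1262, 1.46 for dre_circ_3061 and 0.43 for dre_circ_762. By edgeR with TMM it was 0.71 for dre_circ_1262 and 0.64 for dre_circ_3061, and with library totals, a check chosen after seeing the data, 0.42, 0.44 and, for dre_circ_1686, -0.19. With the pseudocount 4 times larger it was 0.056 for dre_circ_1262 and 0.010 for dre_circ_3061. With 1 library left out it ran from -0.34 to 1.13 for dre_circ_1686, -0.67 to 0.093 for dre_circ_324, -0.73 to 0.33 for dre_circ_1262 and -1.11 to 0.49 for dre_circ_3061. The cause of these changes was not tested.

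Same-numbered libraries of different groups showed correlations of deviations of -0.0555 to 0.106, and differently numbered ones of -0.111 to 0.0748. The ranges overlapped and all values were low, so the numbers were not taken as pairs. With the replicate block 0 members were called (smallest limma adjusted p 0.283), and the mean of same-numbered log2 ratios of summed RPM was -0.56 (SE 0.22).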

Other observations

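Many numbers in the circRNA names do not occur in the table, and their share differs between the blocks that belong to the first library with a read. The table holds 1198 circRNAs of the 3300 numbers up to the end of the CPF 1 block, or 36.3%. It holds 559 of 2430 (23.0%) in the CPF 2 block, 258 of 1393 (18.5%) in the CPF 3 block, and 15.8% to 21.6% of the numbers in the CYP blocks. For numbers first given to control 1, 2 and 3 the shares are 26.9%, 15.3% and 11.5%. Block ends are the highest numbers present in the table, so the spans are estimates. What became of the other numbers was not tested. A circRNA found in several libraries has the number of the earliest in the order CPF, CYP, control, so later blocks hold circRNAs absent from all earlier libraries.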
